A study of Mus musculus with 4 samples.

Results

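Repeated dosing of mice with carbon tetrachloride (CCl4) left 5 genes that are not usually associated with endothelium, namely Ctsj, Sprr2b, Tubb3, Cfap69 and Steap2, far above their vehicle levels in liver endothelial cells. They were picked from the 25149 genes of the deposited tables because they stood out in endothelial cells of CCl4 mice against corn oil mice, so their values in that contrast are given as a description, without a test. Differences between kinds of endothelial cell, and the same treatment contrast in other cell types, were not used to pick them and are tested.

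The CCl4 group was 2 wild-type male mice aged 8 to 10 weeks, injected intraperitoneally with 10 µl of a 1 to 9 mixture of CCl4 and corn oil per g of body weight, 2 times a week for 5 weeks, and killed 48 h after the last dose. The corn oil group was 2 wild-type male mice of the same age given the oil alone on the same schedule. CCl4 is a solvent that injures hepatocytes around the central vein and is used to produce liver fibrosis. Nonparenchymal cells were freed by pronase and collagenase, most hepatocytes were spun out at 50 × g, and single cells were sequenced on a cartridge platform (BD Rhapsody, whole transcriptome), 1 library per mouse. Cell shares after such a preparation are shares of what was recovered, not of the liver.

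Liver sinusoidal endothelial cells line the capillaries of the lobule, carry pores and lack a continuous basement membrane. Along the lobule they run from a periportal to a pericentral state, and the endothelium of the central vein secretes WNT9B and RSPO3, which maintain Wnt signalling in the hepatocytes beside it. Cathepsin J, encoded by Ctsj, is a papain-type cysteine protease of a rodent gene cluster known mainly from placenta. SPRR2B is a small proline-rich protein that transglutaminases cross-link into the cornified envelope of keratinocytes, TUBB3 is the beta-tubulin used as a neuronal marker, CFAP69 is a protein of sperm flagella and olfactory cilia in the mouse, and STEAP2 is a membrane reductase of iron and copper.

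The 300-base RefSeq promoter windows of the 5 genes (GRCm38.p6, 250 bases before to 50 after the start site, gene strand) are shown because the genes share a response, with matches to 5 motifs in capitals. The motifs were AP-1 TGANTCA, E-box CACGTG, STAT TTCNNNGAA, TEAD GGAATG and GC box GGGCGG, each sought on both strands with overlaps allowed. The windows are chr13:61005876-61006175 (minus strand) for Ctsj, chr3:92316455-92316754 (plus) for Sprr2b, chr8:123411303-123411602 (plus) for Tubb3, chr5:5664183-5664482 (minus) for Cfap69 and chr5:5694277-5694576 (minus) for the middle of 3 start sites of Steap2, shown since it holds the most kinds of motif.
Ctsj: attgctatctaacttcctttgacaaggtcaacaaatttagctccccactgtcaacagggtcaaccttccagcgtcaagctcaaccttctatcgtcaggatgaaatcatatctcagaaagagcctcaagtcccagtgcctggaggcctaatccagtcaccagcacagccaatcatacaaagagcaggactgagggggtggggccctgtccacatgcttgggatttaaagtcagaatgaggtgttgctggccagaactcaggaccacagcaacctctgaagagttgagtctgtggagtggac
Sprr2b: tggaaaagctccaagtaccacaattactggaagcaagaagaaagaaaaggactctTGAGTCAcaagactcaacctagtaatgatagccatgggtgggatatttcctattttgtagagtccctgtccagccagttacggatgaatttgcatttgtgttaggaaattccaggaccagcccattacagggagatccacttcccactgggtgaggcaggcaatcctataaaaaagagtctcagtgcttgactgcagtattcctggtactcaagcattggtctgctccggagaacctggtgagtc
Tubb3: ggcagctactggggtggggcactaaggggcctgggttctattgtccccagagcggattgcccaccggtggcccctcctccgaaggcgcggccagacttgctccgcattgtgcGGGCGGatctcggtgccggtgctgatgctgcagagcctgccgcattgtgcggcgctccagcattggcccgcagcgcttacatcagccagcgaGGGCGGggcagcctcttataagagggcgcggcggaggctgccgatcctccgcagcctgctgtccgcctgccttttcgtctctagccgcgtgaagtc
Cfap69: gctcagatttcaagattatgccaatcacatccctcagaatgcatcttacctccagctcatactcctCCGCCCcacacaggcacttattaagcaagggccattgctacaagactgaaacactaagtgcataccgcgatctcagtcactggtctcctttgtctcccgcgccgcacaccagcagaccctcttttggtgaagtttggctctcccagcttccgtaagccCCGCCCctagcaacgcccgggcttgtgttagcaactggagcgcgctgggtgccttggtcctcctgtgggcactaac
Steap2: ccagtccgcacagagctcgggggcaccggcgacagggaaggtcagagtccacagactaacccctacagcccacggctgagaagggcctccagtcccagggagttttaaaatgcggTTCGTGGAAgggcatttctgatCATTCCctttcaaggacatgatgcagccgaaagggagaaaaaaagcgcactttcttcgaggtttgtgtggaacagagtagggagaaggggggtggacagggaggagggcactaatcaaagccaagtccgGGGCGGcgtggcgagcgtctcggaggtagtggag

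The other start sites of Steap2 gave overlapping windows, chr5:5694519-5694818 with no match and chr5:5694040-5694339 with GC boxes at -221, -178 and 29. No motif was common to the 5 windows. Sprr2b held the AP-1 match TGAGTCA at -195 from the start site, a motif present in 7.81% of all 32851 windows. The Steap2 window held a STAT match, TTCGTGGAA, at -135 (8.30% of windows), a TEAD match at -113 (14.7%) and a GC box at 16, while Cfap69 had GC boxes at -184 and -26 and Tubb3 at -138 and -46 (35.7% of windows). The Ctsj window matched none of the 5. GC content was 50% for Ctsj, 46% for Sprr2b, 67.3% for Tubb3, 55.3% for Cfap69 and 58% for Steap2, around a median of 52.7% over all windows. These matches describe letters only, and no binding was measured.

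The tables held 27091 cells, of which 25861 had at least 200 genes and at most 25% mitochondrial molecules (UMIs). Libraries held 45408857 to 55529871 UMIs, with medians of 6861 and 6162 UMIs per cell in CCl4 mice and 5397 and 4493 in corn oil mice. Endothelial cells were those with at least 5 UMIs of Kdr, Ptprb and Egfl7 in sum, at most 2 of Clec4f and at most 3 of Dcn, which gave 3179 and 2869 cells in CCl4 mice and 5212 and 5274 in corn oil mice. All 8 endothelial markers checked were present and made up 1.35% and 1.35% of the gate's UMIs in CCl4 mice, against 1.87% and 2.08% in corn oil mice. Markers of other cells also moved with treatment, each list detected in full in every mouse. The 7 monocyte and macrophage markers made up 0.115% and 0.0995% in CCl4 mice, against 0.0228% and 0.0742% in corn oil mice, and the 8 stellate and fibroblast markers 0.0286% and 0.0392%, against 0.0127% and 0.0144%. The 4 neutrophil markers made up 0.00640% and 0.00887%, against 0.000563% and 0.00155%. The 5 lymphatic endothelial markers, themselves endothelial genes, made up 0.306% and 0.275%, against 0.187% and 0.185%. In each mouse 2 or 3 of these 5 were at a low level, so no RNA of lymphatic cells is read from their sum. The 7 Kupffer markers made up 0.0209% and 0.0154%, against 0.00792% and 0.0115%, while the 5 T and NK cell markers were lower in CCl4 mice, at 0.000614% and 0.000619%, against 0.00312% and 0.00322%. The part of such RNA in the results was not tested. Library pairs shared 48 to 74 cell labels, and the header of the CCl4 1 table carries a different analysis date from the other 3, which cannot be told apart from that mouse. Each mouse gave 1 library, so spread is between mice. Where a mouse is left out below, its group has 1 mouse, which is assumed to vary like the mice of the other group.

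Within the endothelial gate, 129 and 163 cells of CCl4 mice, against 189 and 102 of corn oil mice, had at least 4 UMIs of Vwf, a large-vessel gene, and are called Vwf-high. Of the rest, 299 and 242 cells, against 433 and 362, had at least 2 UMIs of Wnt9b and Rspo3 in sum (Wnt9b/Rspo3 cells). The remaining 2751 and 2464 cells, against 4590 and 4810, are called unzoned and are mostly sinusoidal by number. Stellate cells (Reln, Colec11 and Lrat at 5 or more) and Kupffer cells (Clec4f at 5 or more) served for comparison, and all cells outside these gates are called other. Levels are UMIs summed over the cells of a gate and mouse, divided by all UMIs of that gate and mouse and scaled to a common total (CPM). CPM is not adjusted for transcript length, so levels of different genes were not compared. A sum of this kind cannot tell fewer positive cells from less RNA per cell, so shares of cells with a UMI are given as well.

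Ctsj was nearly undetected in corn oil endothelium and readily found in that of CCl4 mice. It stood at 51.96 and 102.2 CPM (1321 and 2045 UMIs) in CCl4 mice, against 0.101 and 0.156 CPM (3 and 4 UMIs) in corn oil mice. Both CCl4 mice were far above both corn oil mice, and CCl4 2 was above CCl4 1. The mean was 77.1 ± 35.5 CPM in CCl4 mice and 0.129 ± 0.0389 CPM in corn oil mice (SD, n = 2 each), a fitted log2 fold change of 9.12 (SE 0.49). A UMI of Ctsj was found in 16.1% (95% exact binomial interval 14.9 to 17.5) and 23.8% (22.3 to 25.4) of the endothelial cells of CCl4 mice, against 0.0576% and 0.0569%, or 3 cells in each corn oil mouse. Such intervals cover counting error only.

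Sprr2b was found in few endothelial cells, and the number of molecules per positive cell differed between subsets. Its levels were 103 and 58.7 CPM in CCl4 mice, against 0.404 and 0.429 CPM in corn oil mice, without overlap (log2 fold change 7.54, SE 0.41). In CCl4 mice 136 and 83 cells, or 4.28% (interval 3.60 to 5.04) and 2.89% (2.31 to 3.57), held 2619 and 1176 UMIs, which is 19.3 and 14.2 UMIs per positive cell and up to 111 and 125 in one cell. Positive cells of the unzoned subset held fewer, with 90 and 18 UMIs in 22 and 12 cells. In corn oil mice 8 and 7 cells of the whole gate held 12 and 11 UMIs.

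Tubb3 stood at 62.1 and 29.7 CPM in CCl4 mice, against 1.38 and 1.41 CPM in corn oil mice (log2 fold change 4.99, SE 0.43). Both CCl4 mice were higher, with CCl4 1 above CCl4 2, and the corn oil mice were alike. Positive cells made up 19.97% and 11.6% in CCl4 mice, against 0.652% and 0.398% in corn oil mice.

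Cfap69 was spread over many endothelial cells of CCl4 mice and had a measurable level in corn oil endothelium. It stood at 119 and 108 CPM in CCl4 mice, against 6.54 and 10.3 CPM in corn oil mice (log2 fold change 3.69, SE 0.25). The CCl4 mice lay close together and far above both corn oil mice. Its UMIs were in 49.4% and 44.1% of cells in CCl4 mice, against 3.22% and 4.11% in corn oil mice.

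Steap2 stood at 102 and 59.4 CPM in CCl4 mice, against 4.82 and 6.32 CPM in corn oil mice (log2 fold change 3.81, SE 0.32). The groups did not overlap. Positive cells made up 45.5% and 28.3% in CCl4 mice, against 2.32% and 2.52% in corn oil mice. Over the endothelial gate 644 of 13225 genes tested, 4.87%, were called higher and 450, 3.4%, lower at an adjusted p under 0.05 (edgeR quasi-likelihood test). The 5 genes were chosen on that contrast, so nothing is read from where they fall in it.

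Endothelial cells of CCl4 mice were sequenced more deeply, with medians of 6850 and 6190 UMIs against 5184 and 4230 in corn oil mice. With each cell thinned to 2000 UMIs, which left out 27 cells of corn oil 2, the share with a Ctsj UMI was 8.05% and 12.8% in CCl4 mice, against 0.0384% and 0 of 5247 cells in corn oil mice. Cfap69 was then found in 21.2% and 19.9%, against 1.09% and 2.17%, and Steap2 in 17.9% and 10.2%, against 0.863% and 1.12%. Tubb3 was found in 8.46% and 4.60%, against 0.288% and 0.210%, and Sprr2b in 3.11% and 1.92%, against 0.0767% and 0.0953%. Kupffer cells, a cell type of another lineage with medians of 18479 and 16125 UMIs in CCl4 mice and 16375.5 and 15968 in corn oil mice, are set beside them at the same thinned depth. Before thinning, 49.1% and 36.1% of Kupffer cells in CCl4 mice, and 70.8% and 80.0% in corn oil mice, held at least 2 UMIs of Kdr, Ptprb and Egfl7. Their shares thus do not give the rate outside endothelium. In CCl4 mice Kupffer cells held a Ctsj UMI in 1.68% and 1.51% of cells, a Sprr2b UMI in 0.839% and 0.602%, a Tubb3 UMI in 1.89% and 0.602%, a Cfap69 UMI in 2.73% and 1.20%, and a Steap2 UMI in 4.19% and 2.11%. The endothelial share was above the Kupffer share for each gene in each CCl4 mouse. In corn oil mice the Kupffer shares were 0 and 0 for Ctsj, 0.157% and 0 for Sprr2b, 0.472% and 0 for Tubb3, 0.314% and 0.925% for Cfap69 and 0 and 0.462% for Steap2. The corn oil endothelial shares of Cfap69 and Steap2 were above these in each mouse, whereas those of Sprr2b and Tubb3 were below the Kupffer share in corn oil 1, so no expression is read from those shares over the whole gate.

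At least 1 of the 5 transcripts was found in most endothelial cells of CCl4 mice and in few of corn oil mice. None was found in 20.8% and 28.2% of cells in CCl4 mice, against 93.8% and 93.1% in corn oil mice. Cells with 3 or more were 364 with 3, 32 with 4 and 2 with all 5 in CCl4 1, and 192, 12 and 1 in CCl4 2. No corn oil cell held more than 2.

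**Figure D1:**
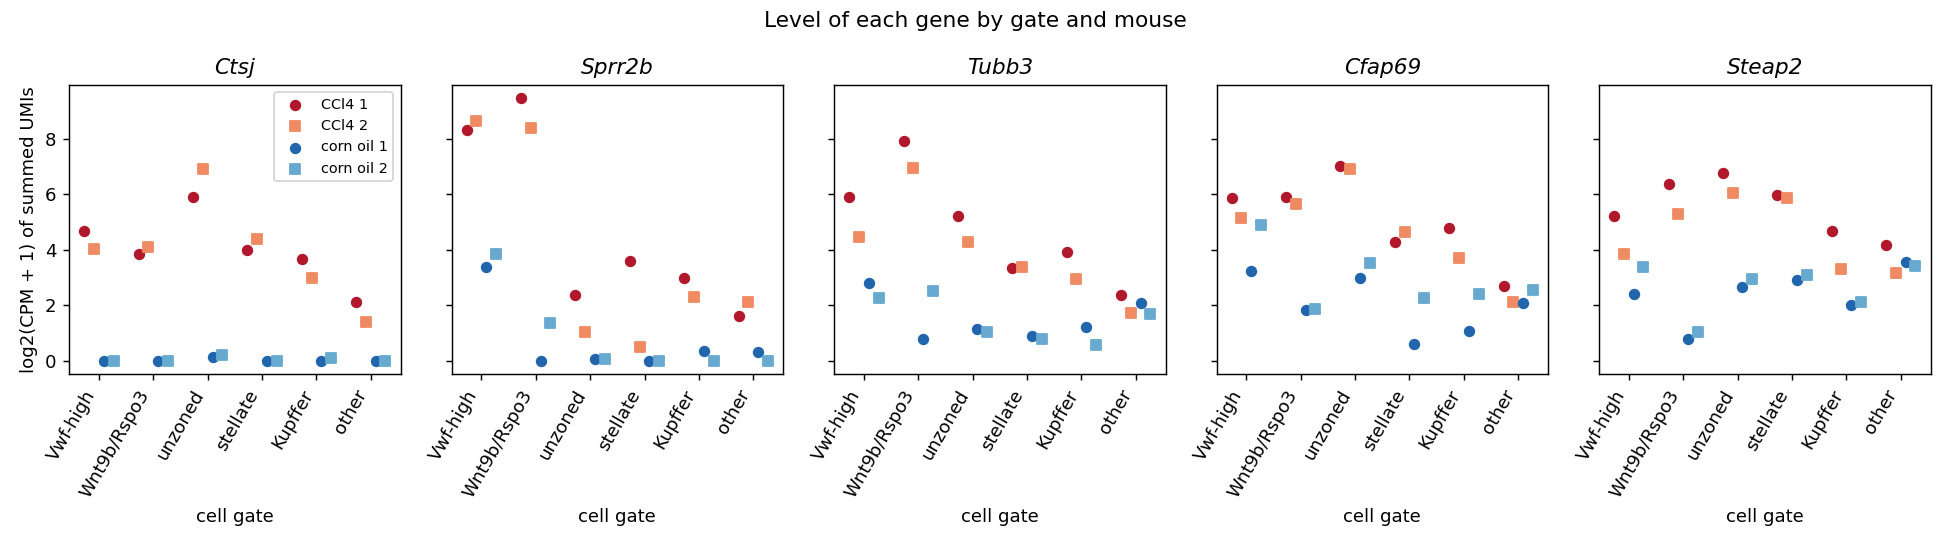
Level of each of the 5 genes as log2(CPM + 1) of UMIs summed per gate (horizontal axis) and mouse. Each point is 1 mouse, red and orange for CCl4 and blue for corn oil, and Sprr2b and Tubb3 peak in Vwf-high or Wnt9b/Rspo3 cells of CCl4 mice while Ctsj and Cfap69 peak in unzoned cells.

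The 5 genes parted by kind of endothelial cell within the CCl4 mice. Sprr2b and Tubb3 were highest in cells with central vein markers, and Ctsj, Cfap69 and Steap2 in the unzoned, mostly sinusoidal cells. These subset differences were tested with edgeR's quasi-likelihood test with the mouse as a block.

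Sprr2b stood in Wnt9b/Rspo3 cells at 707 and 333 CPM and in Vwf-high cells at 314 and 400 CPM, against 4.23 and 1.07 CPM in unzoned cells of CCl4 mice. The Wnt9b/Rspo3 and Vwf-high levels overlapped, and both were far above the unzoned cells. Against unzoned cells Sprr2b was higher by 7.55 log2 units in Wnt9b/Rspo3 cells (SE 0.32, adjusted p = 3.07e-10) and by 7.10 in Vwf-high cells (SE 0.34, adjusted p = 3.14e-10). A Sprr2b UMI was in 34.1% and 20.7% of Wnt9b/Rspo3 cells, against 0.800% and 0.487% of unzoned cells. Of 10916 genes, 11.2% were called higher and 10.7% lower in the Wnt9b/Rspo3 comparison, and 11% higher and 8.84% lower in the Vwf-high comparison.

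The Sprr2b signal of Vwf-high cells lay wholly in those that also had at least 2 UMIs of Wnt9b and Rspo3, a split made after the values were seen. All 318 and 442 Sprr2b UMIs of Vwf-high cells in CCl4 mice were in 28 and 44 such cells, and none was in the other 101 and 119. In corn oil mice, too, the 11 and 7 Sprr2b UMIs of Vwf-high cells were all in the 84 and 48 cells with Wnt9b and Rspo3. Sprr2b stood in these cells at 959 and 1319 CPM in CCl4 mice, against 23.7 and 31.4 CPM in corn oil mice.

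Tubb3 stood in Wnt9b/Rspo3 cells at 241 and 122 CPM, in Vwf-high cells at 59.3 and 20.8 CPM, and in unzoned cells at 35.9 and 18.4 CPM. It was higher by 2.74 log2 units in Wnt9b/Rspo3 than in unzoned cells (SE 0.15, adjusted p = 2.90e-09), and 68.6% and 49.2% of Wnt9b/Rspo3 cells held a UMI. Vwf-high and unzoned cells were not told apart (log2 difference 0.52, SE 0.23, adjusted p = 0.133). Among Vwf-high cells its UMIs, too, were mostly in those with Wnt9b and Rspo3, with 51 of 60 in CCl4 1 and 20 of 23 in CCl4 2. In unzoned cells a Tubb3 UMI was in 14.8% and 8.16% of cells.

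Ctsj showed the reverse order. It stood in Vwf-high cells at 24.7 and 15.4 CPM, in Wnt9b/Rspo3 cells at 13.4 and 16.3 CPM, and in unzoned cells at 58.9 and 119 CPM. The unzoned cells of each mouse were above the other subsets, which overlapped each other. Against unzoned cells Ctsj was lower by a log2 difference of -2.13 in Vwf-high cells (SE 0.29, adjusted p = 8.72e-05) and of -2.50 in Wnt9b/Rspo3 cells (SE 0.24, adjusted p = 3.51e-06). No Ctsj UMI was found in Vwf-high or Wnt9b/Rspo3 cells of corn oil mice, which makes the CCl4 levels at least 11.2-fold and at least 22.3-fold higher against a floor of 3 counts over the group.

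Cfap69 stood in Vwf-high cells at 57.4 and 34.4 CPM, in Wnt9b/Rspo3 cells at 58.2 and 49.8 CPM, and in unzoned cells at 130 and 121 CPM. It was lower than in unzoned cells by a log2 difference of -1.48 in Vwf-high cells (SE 0.17, adjusted p = 7.32e-06) and of -1.22 in Wnt9b/Rspo3 cells (SE 0.13, adjusted p = 5.39e-06). The Vwf-high and Wnt9b/Rspo3 levels overlapped between mice. In corn oil mice the levels were 8.54 and 28.6 CPM in Vwf-high, 2.60 and 2.65 in Wnt9b/Rspo3 and 6.86 and 10.6 in unzoned cells.

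Steap2 stood in Vwf-high cells at 36.6 and 13.6 CPM, in Wnt9b/Rspo3 cells at 82.2 and 38.7 CPM, and in unzoned cells at 108 and 65.1 CPM. The 3 subsets held that order in each CCl4 mouse, although the values of different mice overlapped. Vwf-high cells were lower than unzoned cells by a log2 difference of -1.83 (SE 0.19, adjusted p = 2.47e-06). The smaller difference of Wnt9b/Rspo3 cells, -0.53 (SE 0.13, adjusted p = 0.00599), was lost without CCl4 2 (-0.39, adjusted p = 0.151) and with DESeq2 (-0.55, adjusted p = 0.145), with adjusted p of 2.38e-04 to 0.151 over 9 alternatives.

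A finer grading by the number of Wnt9b and Rspo3 UMIs in a cell, drawn up after the values were seen, gave similar orders, with single steps that went the other way. Over cells with 0, 1, 2 to 4, 5 to 9 and 10 or more such UMIs, Sprr2b was detected in 0.587%, 4.69%, 11.9%, 27.8% and 53.2% of cells in CCl4 1, and in 0.241%, 6.32%, 4.60%, 14.5% and 41.0% in CCl4 2. Ctsj was detected in 17.5% of cells at 0 and 3.90% at 10 or more in CCl4 1, and in 26.0% and 3.47% in CCl4 2. Cells with 10 or more had a median of 9110.5 UMIs against 6647.5 at 0 in CCl4 1, and 7860.5 against 6019 in CCl4 2.

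**Figure D2:**
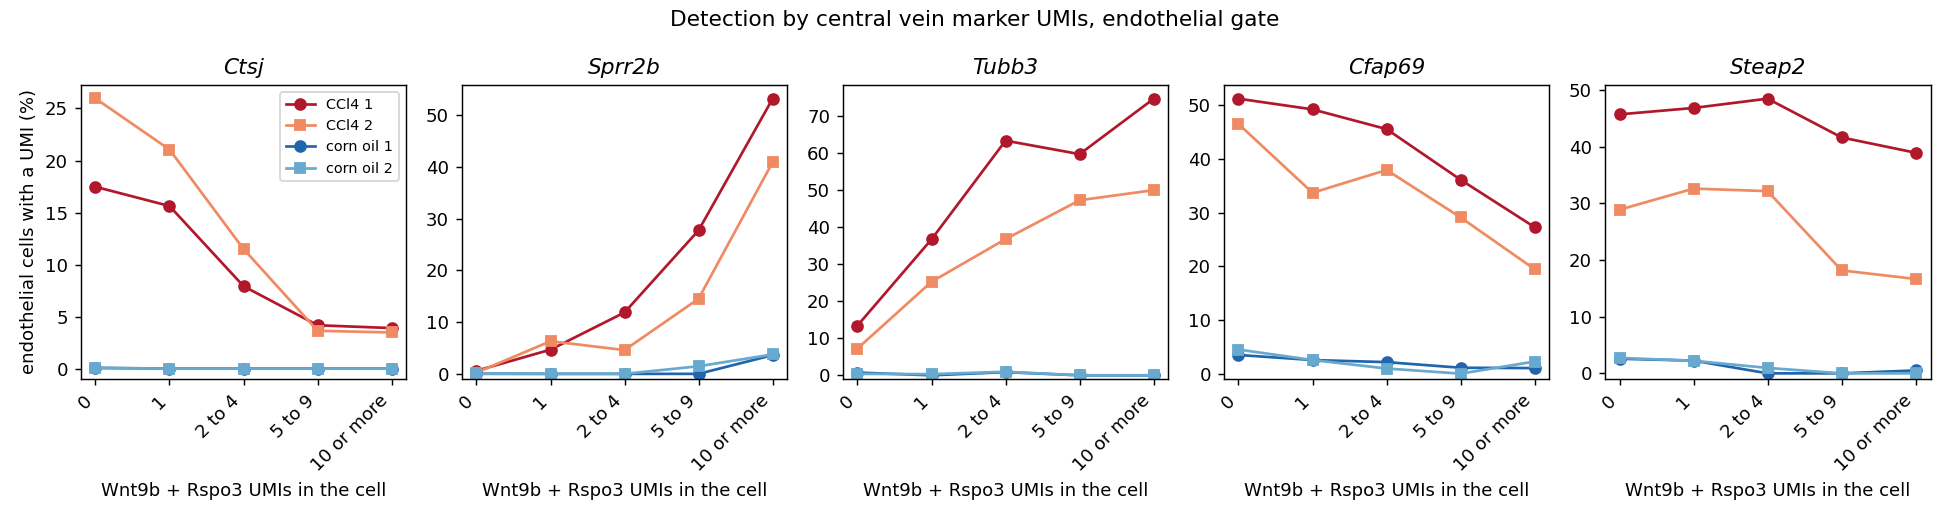
Percent of endothelial cells with a UMI of each gene (vertical axis) by the number of Wnt9b and Rspo3 UMIs in the cell (horizontal axis), 1 line per mouse. In CCl4 mice Sprr2b and Tubb3 are detected in more cells at 10 or more such UMIs than at 0, Ctsj and Cfap69 in fewer, and the vertical scale differs between panels.

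Cells just inside and just outside the thresholds are given for CCl4 mice without a test. With exactly 2 UMIs of Wnt9b and Rspo3 (43 and 42 cells), Tubb3 was detected in 62.8% and 33.3% and Sprr2b in 4.65% and 2.38%, while with exactly 1 (125 and 94 cells) they were detected in 36.8% and 25.5% and in 4.80% and 6.38%. With exactly 4 UMIs of Vwf (29 and 25 cells) Sprr2b was detected in 17.2% and 12%, and with exactly 3 (40 and 36 cells) in 20% and 22.2%. Only 9 and 6 cells sat at exactly 5 endothelial UMIs, with no Ctsj UMI, and 12 and 16 at exactly 4, with 1 Ctsj-positive cell in CCl4 1.

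Pericentral and periportal genes other than the gating ones gave a like picture. Cells thinned to 2000 UMIs were graded by Kit, Wnt2, Thbd and Cdh13, genes of the pericentral side, against Efnb2, Dll4, Ltbp4, Msr1 and Adam23, genes of the periportal side, with an excess of at least 2 UMIs either way. This grading was also made after seeing the data. Ctsj stood at 68.5, 34.7 and 21.3 CPM in cells with a portal excess, neither and a central excess in CCl4 1, and at 126, 70.2 and 44.0 CPM in CCl4 2. Sprr2b stood at 1.05, 25.5 and 445 CPM in the same order in CCl4 1, and at 2.89, 28.1 and 309 CPM in CCl4 2. Tubb3 stood at 22.1, 35.3 and 193 CPM in CCl4 1 and at 12.6, 25.6 and 100 CPM in CCl4 2, while Cfap69 stood at 130, 118 and 87.3 CPM and at 121, 103 and 63.6 CPM. Steap2 varied least, with 105, 105 and 90.2 CPM in CCl4 1 and 59.3, 71.0 and 47.8 CPM in CCl4 2. Within corn oil mice Cfap69 and Steap2 were also lower in cells with a central excess, with Cfap69 at 1.28 and 2.52 CPM there, against 9.70 and 13.8 CPM in cells with a portal excess.

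Co-detection within single cells followed these groupings. Sprr2b and Tubb3 were found together in 95 and 42 endothelial cells of CCl4 mice, 3.50 and 4.35 times the product of their single shares. Within Wnt9b/Rspo3 cells alone the ratio was nearer 1, at 1.14 and 1.38. It stayed above 1 in the other subsets, on few cells. It was 2.15 and 3.06 in unzoned cells (7 and 3 cells) and 3.91 and 2.77 in Vwf-high cells (8 and 5 cells). Sprr2b and Ctsj were found together in 7 and 3 cells, 0.319 and 0.152 times the product, and Ctsj and Tubb3 in 67 and 54 cells, 0.654 and 0.679 times. Within Wnt9b/Rspo3 cells these ratios were 1.03 and 0.569 (6 and 2 cells), and 1.20 and 0.957 (14 and 8 cells). Within unzoned cells they were 0.255 and 0.310 (1 and 1 cells), and 0.700 and 0.852 (51 and 46 cells).

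Ctsj, Cfap69 and Steap2 were found together in pairs slightly more often than the product of their shares. The ratio was 1.17 and 1.20 for Ctsj with Cfap69 (296 and 363 cells), 1.18 and 1.12 for Ctsj with Steap2 (276 and 217 cells), and 1.15 and 1.13 for Cfap69 with Steap2 (821 and 405 cells). Both transcripts of a pair share the depth of their cell. At 2000 UMIs per cell the ratios were 1.24 and 1.23, 1.24 and 1.11, and 1.11 and 1.18 for the same pairs. Tubb3 with Cfap69 (0.965 and 0.916) and with Steap2 (1.03 and 1.00) were near 1. Sprr2b with Cfap69 (0.669 and 0.628) and with Steap2 (0.776 and 0.681) were below it. These ratios describe cells of 1 library each and carry no test.

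**Figure D3:**
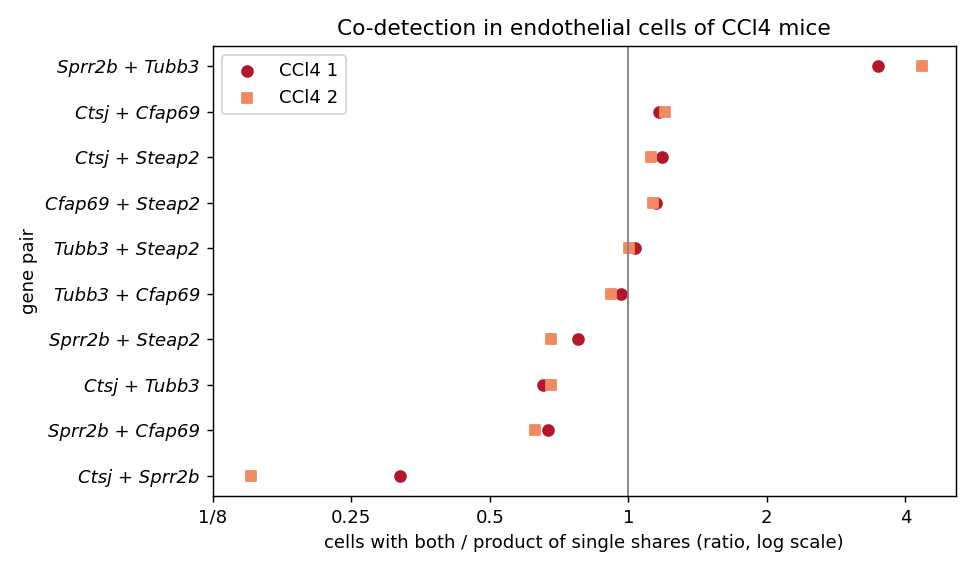
Ratio of the share of endothelial cells with both transcripts to the product of the single shares (log axis) for the 10 pairs (vertical axis), in each CCl4 mouse. The pair Sprr2b and Tubb3 lies farthest above 1 and the pair Ctsj and Sprr2b farthest below it in both mice.

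Ctsj-positive endothelial cells of CCl4 mice, 513 and 683 cells, were set beside the 2666 and 2186 negative cells at similar depth, with medians of 7003 and 6333 UMIs in positive cells against 6831 and 6150.5 in negative cells. Of 7642 genes compared, Esm1, which encodes the proteoglycan endocan and marks endothelial tip cells, ranked first by the smaller of the ratios of both mice, with log2 ratios of 1.08 and 0.90. The next were Esrrb, an orphan nuclear receptor (0.72 and 0.98), Cntfr, the ciliary neurotrophic factor receptor (0.69 and 0.73), Ptgfrn, a tetraspanin partner (0.63 and 0.61), and Gpx8, an endoplasmic reticulum peroxidase (0.68 and 0.55). Among the other members, log2 ratios were 0.32 and 0.33 for Cfap69, 0.20 and 0.24 for Steap2, and -1.08 and -0.92 for Tubb3. These are sums over cells of 2 mice, without a test.

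The genes most like each member were sought by Pearson correlation of log2(CPM + 1) over 20 points (4 mice by 5 gates, namely the 3 endothelial subsets, stellate and Kupffer cells) among 12791 genes. The points share mice and depth, and the values are a description. For Ctsj these were Pdia6 (0.95), Calr (0.93) and Hyou1 (0.93), each a protein of folding in the endoplasmic reticulum. For Steap2 they were Dbn1, an actin-binding protein (0.90), Pdia4 (0.90) and Hyou1 (0.88). For Sprr2b they were Serpinb9b, a serine protease inhibitor (0.95), Nts, which encodes neurotensin (0.93), and Itga2, an integrin subunit (0.93). For Tubb3 they were Fxyd5, a sodium pump regulator (0.93), Plaur, the urokinase receptor (0.93), and Tmem173, which encodes STING (0.93). For Cfap69 they were Armcx4 (0.95), Rcc2 (0.89) and Hnrnpa2b1, an RNA-binding protein (0.88). Among the members, the closest pairs were Ctsj with Steap2 (0.89) and Ctsj with Cfap69 (0.87), and the least alike Ctsj with Sprr2b (0.49).

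The treatment contrast in stellate and Kupffer cells was not used to pick the genes. In stellate cells, the retinoid-storing pericytes that turn into collagen-producing cells on injury, 684 and 221 cells of CCl4 mice were compared with 527 and 551 of corn oil mice. Steap2 was called higher there, against a background of 11.5% of 12275 genes called higher and 11.1% lower. Ctsj stood at 15.1 and 20.1 CPM in CCl4 mice and had 0 UMIs in both corn oil mice, at least 69.8-fold higher against a floor of 3 counts over the group. It passed the filter on low counts only through the CCl4 mice, so no p is given. Steap2 stood at 62.5 and 57.8 CPM in CCl4 mice, against 6.59 and 7.57 CPM in corn oil mice (log2 fold change 3.04, SE 0.20, adjusted p = 1.03e-04). Tubb3 stood at 9.19 and 9.42 CPM, against 0.845 and 0.714 CPM (log2 fold change 3.50, SE 0.43). Like Ctsj, Tubb3 passed the filter on low counts only through the CCl4 mice, so no p is given. Cfap69 stood at 18.5 and 24.0 CPM in CCl4 mice, against 0.507 and 3.86 CPM in corn oil mice (log2 fold change 3.13, SE 0.57). With 3 and 27 UMIs in corn oil mice, it too passed the filter on low counts only with the CCl4 mice, so no p is given. The corn oil mice differed for Cfap69, and its log2 fold change was 2.37 without corn oil 1 and 5.30 without corn oil 2. Sprr2b, with 91 and 1 UMIs in CCl4 mice and 0 in both corn oil mice, was under the filter on low counts, and its 91 UMIs lay in 10 cells of 1 mouse.

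Stellate and Kupffer gates also held endothelial RNA, and in CCl4 mice most UMIs of Ctsj, Tubb3 and Cfap69 were in the cells that held it. Cells with at least 2 UMIs of Kdr, Ptprb and Egfl7 made up 27.3% and 24.0% of the stellate gate in CCl4 mice, against 65.8% and 74.0% in corn oil mice, and 49.1% and 36.1% of the Kupffer gate, against 70.8% and 80.0%. Of the 125 and 47 Ctsj UMIs in stellate cells of CCl4 mice, 123 and 47 were in such cells, as were all 91 of Sprr2b in CCl4 1. Of the 76 and 22 Tubb3 UMIs in stellate cells of CCl4 mice, 64 and 15 were in such cells. Among stellate cells with at most 1 endothelial UMI, Ctsj had 2 and 0 UMIs over 497 and 168 cells of CCl4 mice, and 0 over 180 and 143 cells of corn oil mice. Tubb3 had 12 and 7 UMIs there in CCl4 mice, against 0 and 0 in corn oil mice.

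Steap2 was the exception in stellate cells. Among cells with at most 1 endothelial UMI it stood at 62.4 and 62.1 CPM in CCl4 mice (299 and 98 UMIs), against 10.1 and 10.3 CPM in corn oil mice (11 and 9 UMIs). Both pairs of mice agreed closely and did not overlap. The log2 fold change was 2.57 (SE 0.27, adjusted p = 5.21e-04 with edgeR), in a comparison added after the data were seen. It was the only member with enough counts to be tested in those cells. The ratio of Steap2 to Cfap69 UMIs also differed between gates of CCl4 mice, with 3.38 and 2.41 in stellate cells, against 0.856 and 0.548 in endothelial cells.

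**Figure D4:**
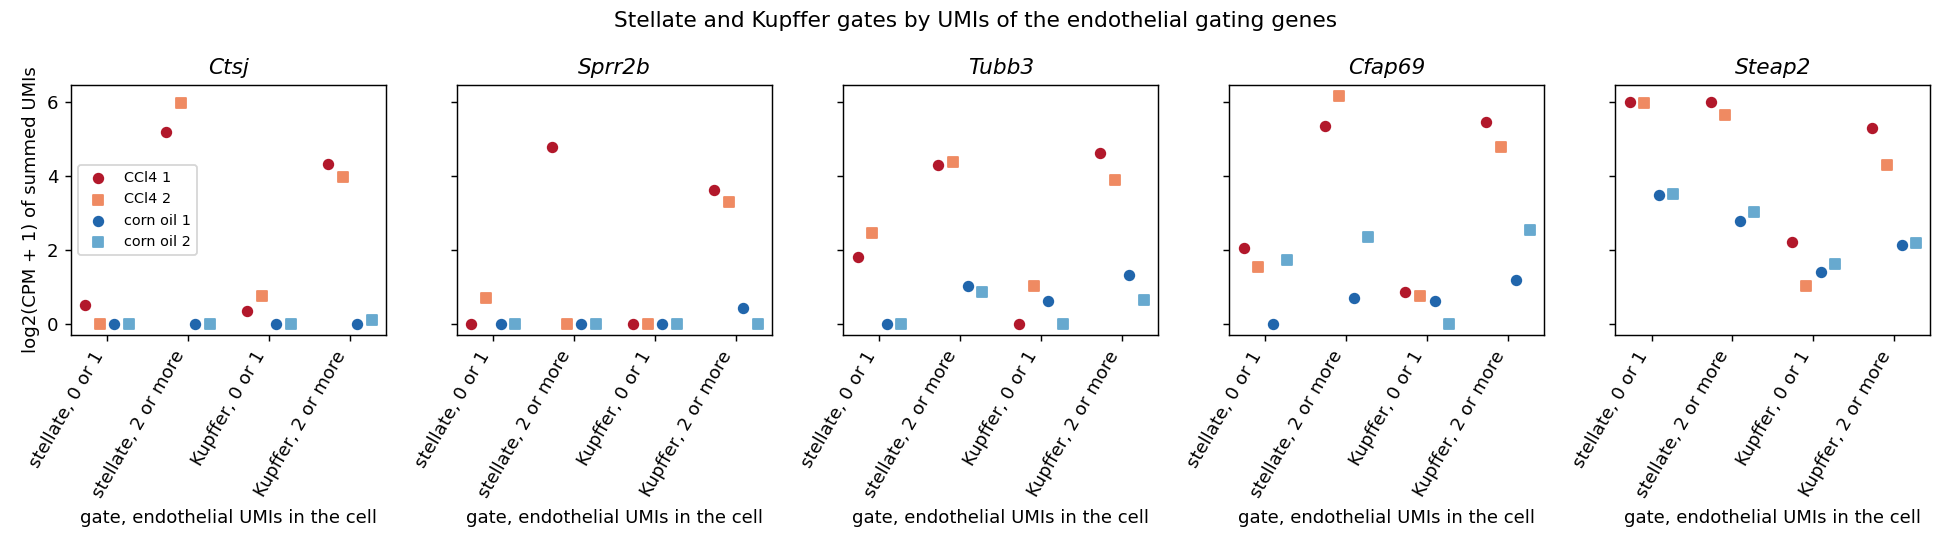
Level as log2(CPM + 1) of each gene in stellate and Kupffer cells with 0 or 1 and with 2 or more UMIs of the endothelial gating genes (horizontal axis), 1 point per mouse. Ctsj, Tubb3 and Cfap69 of CCl4 mice lie higher in cells with 2 or more, whereas Steap2 in stellate cells is at 62.4 and 62.1 CPM with 0 or 1 and at 62.7 and 48.8 CPM with 2 or more.

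In Kupffer cells, the resident macrophages of the sinusoid, 477 and 332 cells of CCl4 mice were compared with 636 and 869 of corn oil mice, with 4.71% of 12315 genes called higher and 3.8% lower. Ctsj stood at 11.6 and 6.94 CPM in CCl4 mice, against 0 and 0.0708 CPM in corn oil mice (0 and 1 UMIs), and the ratio of summed levels was 245 with a 95% counting interval of 43.3 to 9738. Like Sprr2b, it passed the filter on low counts only through the CCl4 mice, so no p is given for either. Sprr2b stood at 6.90 and 3.94 CPM in CCl4 mice, against 0.284 and 0 CPM in corn oil mice (3 and 0 UMIs). Tubb3 stood at 14.2 and 6.75 CPM, against 1.33 and 0.496 CPM (log2 fold change 3.56, SE 0.59). With 14 and 7 UMIs in corn oil mice, Tubb3 passed the filter on low counts only with the CCl4 mice, so no p is given. Steap2 stood at 24.8 and 8.81 CPM, against 3.03 and 3.40 CPM, and was called higher (log2 fold change 2.37, SE 0.51, edgeR adjusted p = 0.0458). Cfap69 stood at 26.5 and 12.2 CPM, against 1.14 and 4.32 CPM, and was not called (2.76, SE 0.63, adjusted p = 0.0517). None of the 5 overlapped between the groups, but the share of all genes without overlap was not counted, so nothing is read from this. Among Kupffer cells with at most 1 endothelial UMI all 5 genes were under the filter on low counts. In those cells Ctsj had 1 and 2 UMIs, Tubb3 0 and 3, Cfap69 3 and 2, and Steap2 13 and 3 UMIs in CCl4 mice. In corn oil mice they had 0 and 0, 1 and 0, 1 and 0, and 3 and 3 UMIs. Of the 132 and 36 Tubb3 UMIs in Kupffer cells of CCl4 mice, 132 and 33 were in cells with at least 2 endothelial UMIs. Of the 230 and 47 Steap2 UMIs, 217 and 44 were in such cells.

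Calls in Kupffer cells changed with the setting. For Tubb3, for which no p is given, the log2 fold change was 2.96 without corn oil 2 and ran from 2.89 to 4.33 over 10 alternatives. The Steap2 call was lost without CCl4 1 (1.41, adjusted p = 0.0726), without corn oil 1 (2.26, 0.104) and without corn oil 2 (2.46, 0.150), and held in 7 of 10 alternatives, down to 1.17e-12. Without a corn oil mouse its fold change was thus close to 2.37, while without CCl4 1 it was lower. Cfap69 was called in 5 of 10 alternatives, namely DESeq2, at most 15% mitochondrial UMIs, cells of 1 gate only, no filter on low counts and without CCl4 2, with adjusted p from 2.33e-17 to 0.0996 and fold changes from 2.07 to 4.06.

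The cells outside every gate, 1880 and 2216 in CCl4 mice against 628 and 742 in corn oil mice, differ in makeup between treatments, so their levels are given without a comparison. Ctsj stood there at 3.39 and 1.66 CPM in CCl4 mice and 0 in both corn oil mice, and Steap2 at 17.0 and 8.05 CPM, against 10.8 and 9.73 CPM. Cfap69 stood at 5.47 and 3.40 CPM, against 3.25 and 4.87 CPM, so its groups overlapped there.

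The genes lie at 4 loci, with positions from GENCODE vM21 on GRCm38. Cfap69 (chr5:5579278-5664239) and Steap2 (chr5:5664829-5694578) are neighbours on the minus strand, 590 bp apart, with Steap2 upstream. Ctsj lies at chr13:61000179-61005959 (minus), Sprr2b at chr3:92316620-92318085 (plus) and Tubb3 at chr8:123411424-123422015 (plus). Their 3 nearest genes on each side that are in the tables came to 24 genes besides the members, of which 11 could be tested in endothelial cells. Of these 3 were called higher and 0 lower, beside 4.87% higher and 3.4% lower over all genes. The 3 include Sprr2a3 and Steap1, which passed the filter on low counts only with the CCl4 mice.

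Steap1, the next gene of the Steap2 locus and a family member, stood at 14.6 and 5.39 CPM (370 and 108 UMIs) in CCl4 mice, against 0.438 and 0.117 CPM (13 and 3 UMIs) in corn oil mice. Its log2 fold change was 5.07 (SE 0.72), and 4.10 without CCl4 1, where its call was lost. Steap1 passed the filter on low counts only with the CCl4 mice, so no p is given. On the other side of Cfap69, Gtpbp10 was not called (-0.24, SE 0.20, adjusted p = 0.504). Within CCl4 mice Steap1 was not told apart between Wnt9b/Rspo3 and unzoned cells (log2 difference 0.01, adjusted p = 0.991).

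Beside Ctsj, Ctla2a, which encodes a cysteine protease inhibitor related to the cathepsin propeptide, stood at 627 and 683 CPM in CCl4 mice, against 164 and 148 CPM in corn oil mice (log2 fold change 2.01, SE 0.13, adjusted p = 0.00174). The call held without each mouse in turn (highest adjusted p 0.0282). The placental cathepsins next to Ctsj were silent in these cells: Ctsq had 1 UMI in CCl4 2 and Cts6 and Cts8 had 0 in all 4 mice. Ctsj was therefore the only one of the 4 with more than 1 UMI.

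Beside Sprr2b, Sprr2a3 had 131 and 42 UMIs in CCl4 mice and 0 in both corn oil mice, at least 70.2-fold higher against a floor of 3 counts over the group. It passed the filter on low counts only through the CCl4 mice, so no p is given. Of the 50-base stretches of the Sprr2b transcripts, 14.1% also occur in Sprr2a1, Sprr2a2 or Sprr2a3, so a part of the reads of either could have been counted for the other. Sprr2h and Sprr2i, on the other side, had at most 1 UMI in any mouse. The 4 tested neighbours of Tubb3, namely Tcf25, Spire2, Def8 and Afg3l1, had log2 fold changes of -0.05 to 0.41 and none was called. Tubb3 lies within the read-through model Gm20388 of the same strand, which is not in the tables.

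**Figure D5:**
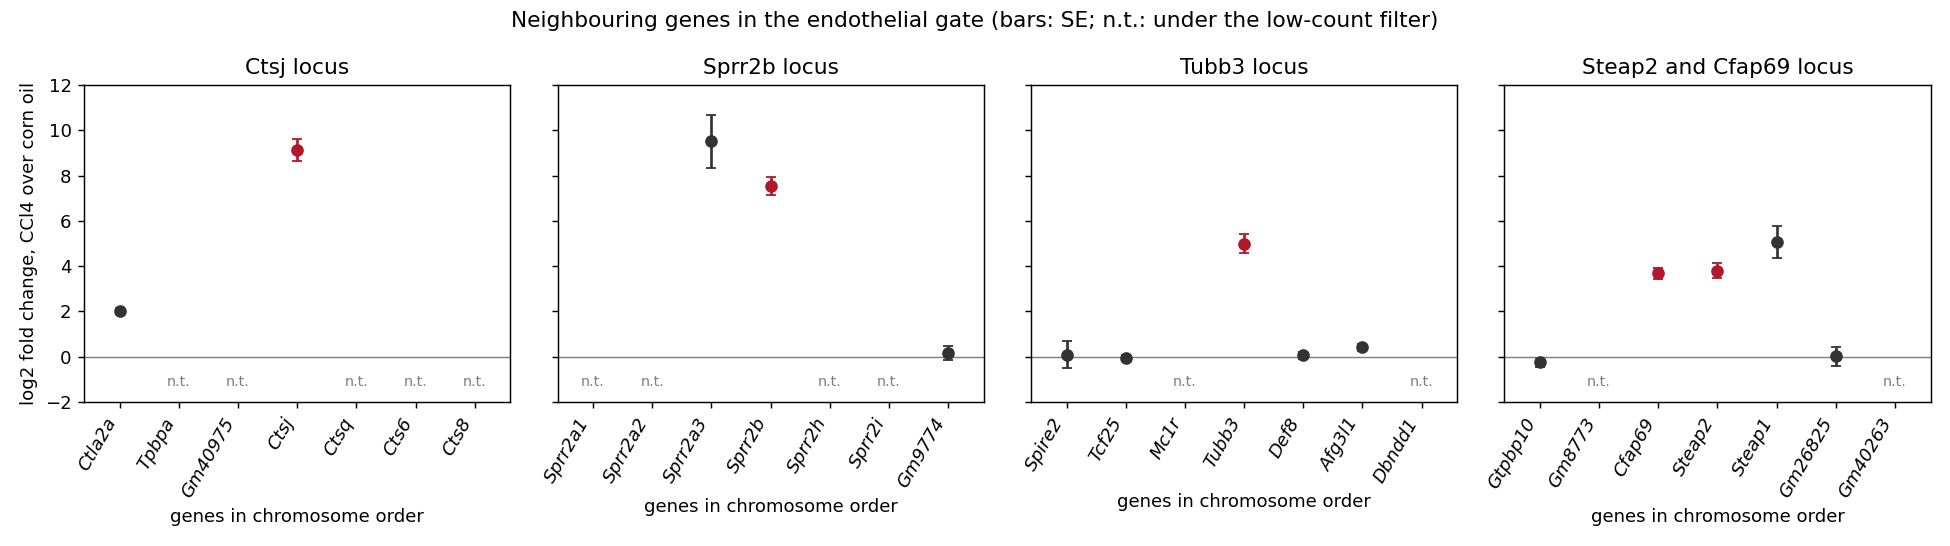
Log2 fold change of CCl4 over corn oil in the endothelial gate (vertical axis, bars are SE) for the members (red) and their neighbours (dark) in chromosome order, with n.t. for genes under the filter on low counts and Cldn12 (-0.10) not drawn. Steap1, Ctla2a and Sprr2a3 stand above 0 beside members, Sprr2a3 with a fitted value that depends on its corn oil counts of 0, and the neighbours of Tubb3 lie near 0.

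Gene families of the 5 members were counted in the endothelial gate, where 4.87% of all genes were called higher and 3.4% lower and the median log2 fold change was 0.006. The lists were not tested as sets. Of 31 listed cathepsins and cathepsin inhibitors 17 were tested, with 4 called higher, 2 lower and a median of 0.23, beside 4.87% and 3.4% of all genes. Beside Ctla2a these included the lysosomal cathepsins Ctsc, with 63.5 and 63.3 CPM in CCl4 mice against 23.0 and 21.5 in corn oil mice (log2 fold change 1.45, SE 0.13, adjusted p = 0.00384), and Ctsb (1.37, SE 0.15, adjusted p = 0.00571). Ctsw, a cathepsin of cytotoxic lymphocytes, fell by 2.45 log2 units at a low level. With 12 and 5 UMIs in CCl4 mice, it passed the filter on low counts only with the corn oil mice, so no p is given. Its call was lost without CCl4 1, CCl4 2 or corn oil 2. The 5 T and NK cell markers were lower with it, at 0.000614% and 0.000619% of UMIs in CCl4 mice, against 0.00312% and 0.00322% in corn oil mice, and their part in the Ctsw value was not tested. Ctsb was lost without CCl4 1 (adjusted p = 0.0550).

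Of 30 cornified envelope genes 8 were tested, with 3 higher, 1 lower and a median of 0.63, beside 4.87% and 3.4% of all genes. The median was 0.32 without corn oil 1 and 1.59 without corn oil 2. Sprr1a, a relative of Sprr2b that is also known from injured neurons, had 273 and 216 UMIs in CCl4 mice and 0 in both corn oil mice. That is at least 198-fold higher against a floor of 3 counts over the group. Like Sprr2a3, also among the 3 called higher, it passed the filter on low counts only through the CCl4 mice, so no p is given. Within CCl4 mice it stood in Wnt9b/Rspo3 cells at 59.8 and 39.1 CPM, against 3.99 and 7.28 CPM in unzoned cells (log2 difference 3.21, adjusted p = 3.21e-05). Tgm2, the tissue transglutaminase, rose by 0.87 log2 units (adjusted p = 0.0309), a call lost without CCl4 1 or corn oil 2. Jup, which encodes plakoglobin, fell by 0.63 (adjusted p = 0.0457) and was lost without any 1 of the 4 mice.

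Of 16 tubulin genes 11 were tested, with 4 higher, 0 lower and a median of 0.16, beside 4.87% and 3.4% of all genes. The median was 0.41 without corn oil 1 and -0.02 without corn oil 2. Tubb6 stood at 38.4 and 27.3 CPM in CCl4 mice, against 9.50 and 5.93 CPM in corn oil mice (log2 fold change 2.03, SE 0.29, adjusted p = 0.0130). Tuba1c (1.35), Tubb2a (1.27) and Tuba4a (1.07) were the others. Like Tubb3, Tubb6, Tuba1c and Tubb2a were higher in Wnt9b/Rspo3 than in unzoned cells of CCl4 mice, by 1.67, 1.35 and 1.39 log2 units. None of the 4 was called without CCl4 1, and Tuba4a was lost without any 1 mouse.

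Of 20 neuronal genes 8 were tested, and 1 was called higher and 2 lower, with a median of -0.89, beside 4.87% and 3.4% of all genes. Uchl1, a ubiquitin hydrolase abundant in neurons, stood at 9.32 and 7.49 CPM in CCl4 mice, against 1.28 and 0.976 CPM in corn oil mice (log2 fold change 2.83, adjusted p = 0.00571). Nefh, a neurofilament subunit, fell by 2.26 and Mapt, which encodes tau, fell by 0.92 log2 units. The 3 calls were lost without CCl4 1, and those of Nefh and Mapt also without CCl4 2. Of 46 genes of cilia and flagella 17 were tested and 0 were called with edgeR, beside 4.87% higher and 3.4% lower over all genes. The median was -0.37, and 5 had an unadjusted p under 0.05, as did 3418 of all 13225 genes tested. DESeq2 and the fit with the replicate number as a block each called 1 higher. With 17 tested, a count of 0 is near the share over all genes and is not read as a result about the list.

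Of 22 genes of the STEAP family and metal transport 19 were tested, with a median of 0.50. Steap1, which passed the filter on low counts only with the CCl4 mice, was called higher, beside 4.87% of all genes. The iron exporter Slc40a1 was called lower (log2 fold change -0.66, edgeR adjusted p = 0.0361, lost without any 1 mouse), beside 3.4% of all genes. DESeq2 and the fit with the replicate number as a block each called 7 higher and 2 lower in the list. Of all 13225 genes DESeq2 called 983 higher and 786 lower, and the block fit 1201 and 931. Of 15 genes known from regenerating neurons 13 were tested, with 4 higher, 2 lower and a median of 0.15, beside 4.87% and 3.4% of all genes. The median was -0.42 without CCl4 1 and 0.55 without CCl4 2. Besides Sprr1a these were the transcription factor Myc, the AP-1 subunit Fosl1 (log2 fold change 3.17) and the stress gene Gadd45a (1.16, edgeR adjusted p = 0.0241). Myc stood at 180 and 90.6 CPM in CCl4 mice, against 13.8 and 13.7 CPM in corn oil mice (log2 fold change 3.25, SE 0.35, edgeR adjusted p = 0.00559). The Myc call held without each mouse in turn (highest adjusted p 0.0166). The Gadd45a call was lost without CCl4 1. Fosl1 had 8 and 9 UMIs in corn oil mice and, like Sprr1a, passed the filter on low counts only through the CCl4 mice, so no p is given.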

How the data were processed

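Single-cell RNA-seq was deposited for 4 mice as tables of UMI counts per cell and gene, which the authors made with the BD WTA Rhapsody Analysis Pipeline 1.9.1 on GRCm38 with GENCODE vM19, per the file headers. No aligner is named there, and how the pipeline was set is not known here. Cells under 200 genes or over 25% mitochondrial UMIs were dropped, and the rest were gated by UMI sums. No doublet caller was run, and cells of more than 1 gate were left out as an alternative.

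Counts were summed per gate and mouse and tested across mice with edgeR 4.0.16 (glmQLFit and glmQLFTest, TMM, filterByExpr, Benjamini-Hochberg adjustment over all genes tested, threshold 0.05) in R 4.3.3. Treatment contrasts were fitted on the 4 mice of a gate, and subset contrasts on 3 subsets of each mouse with the mouse as a block and a subset by treatment term. Alternatives were DESeq2 1.42.0, no filter on low counts, 15% mitochondrial UMIs, stricter gates, a replicate block and leaving out each mouse. The fits were tested on simulated data. Exact binomial and Poisson intervals (95%) cover counting error only. With 2 mice against 2, an exact permutation test has 6 splits and cannot go below p = 0.333. Cells were thinned to 2000 UMIs for shares. Python 3.11.15 was used for the rest.

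The 5 genes and the gene lists were chosen with earlier results of these data known. From each list at most 4 called genes were named, and the 3 nearest genes on each side of a member. Protein sequences were not used here.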

Additional observations from a re-analysis of the deposited data

Results flagged for a closer look

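Cells that passed the endothelial gate but had over 25% mitochondrial UMIs were not used in the comparisons, and the 5 genes are described there. Pooled over mice, Ctsj was found in 26% (13 of 50 cells) in CCl4 mice and in 0 of 109 cells in corn oil mice, which allows a share of up to 2.75%. Tubb3 was found in 16% (8 cells) in CCl4 mice and in 0 of 109 cells in corn oil mice. Cfap69 was found in 40% (20 cells), against 3.67% (4 cells), and Steap2 in 20% (10 cells), against 4.59% (5 cells). Sprr2b was found in 0 of 18 and 2 of 32 cells in CCl4 mice, and in 0 of 29 and 0 of 80 cells in corn oil mice. No test was made on these pooled cells. The genes were picked on the same contrast in the other endothelial cells. The share of all genes that were higher here was not counted, so nothing is read from these values.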

How the results depend on the processing

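The number of genes called moved with the processing. In endothelial cells it was 1094, and 1769 with DESeq2, 2611 without the filter on low counts, 2132 with a replicate block, and 132 to 1120 when each mouse was left out, with 132 without CCl4 1 and 358 without CCl4 2. In Kupffer cells it was 1048, and 1576 with DESeq2, 2941 without the filter, and 78 to 983 when each mouse was left out, with 78 without corn oil 2, 527 without CCl4 2 and 596 without corn oil 1. In stellate cells it was 2772, and 1365 with at most 1 endothelial UMI, an alternative chosen after seeing the data, and 1586 (without corn oil 2) to 2888 when each mouse was left out. For subsets it was 2161 for Vwf-high cells, with 1219 (without CCl4 2) to 2088, and 2394 for Wnt9b/Rspo3 cells, with 1420 (without CCl4 1) to 2337 and 1509 without CCl4 2. The mean share of positive endothelial cells in CCl4 mice at 2000 UMIs was 10.4% for Ctsj, 2.52% for Sprr2b, 6.53% for Tubb3, 20.6% for Cfap69 and 14.1% for Steap2, and at 2 or more UMIs 10.9% for Ctsj, 7.33% for Tubb3, 22.2% for Cfap69 and 14.8% for Steap2. Thinned mean co-detection ratios were 0.0627 for Ctsj with Sprr2b, 0.513 for Ctsj with Tubb3, 1.23 for Ctsj with Cfap69, 4.60 for Sprr2b with Tubb3, 0.393 for Sprr2b with Cfap69 and 0.608 for Sprr2b with Steap2. The cause of these shifts was not tested. Whether replicate numbers pair the mice is not known, and 2 pairs cannot settle it. Deviations of same-numbered mice correlated across genes at 0.174 in endothelial, 0.112 in stellate and 0.0432 in Kupffer cells. No fold change of the 5 genes reversed under the alternatives run. List medians did change sign: that of regenerating neuron genes was -0.42 without CCl4 1 and -0.10 without the filter, and that of tubulins -0.02 without corn oil 2. Leaving out a mouse leaves 1 in its group, so in the treatment contrasts the spread then comes from the other group.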
